A study of Mus musculus with 9 samples.

Results

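The 10 genes described here are the imprinted genes H19, Meg3, Rian, Mirg, Dlk1, Peg3, Grb10, Plagl1, Ndn and Igf2r. They were chosen by symbol and not by their values, though earlier results of these data were known. All 10 have a row among the 47728 genes of the deposited count tables. Of these rows, 6 held a count in some library and 4 were at 0 in every library, while 23515 of all genes held a count. The counts come from polyA RNA of C2C12, a mouse myoblast line that leaves the cell cycle and fuses into myotubes in low serum. Cry2 knockdown cells, Cry1 knockdown cells and control cells were each sampled at days 0, 3 and 5 of differentiation, giving 9 libraries with 1 for each genotype and day. All 3 genotypes were grown in 10% fetal bovine serum and moved at day 0 to 5% horse serum with 1% insulin, transferrin and selenium. The method of knockdown, and whether each line is 1 clone, is not given in the sources used here.

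An imprinted gene is transcribed mainly from the allele of 1 parent, under the control of regions that carry DNA methylation set in the germ line on 1 of the parental alleles. H19, a maternally expressed long noncoding RNA, shares enhancers with the paternally expressed growth factor gene Igf2, and it is known for its abundance in embryonic muscle and in differentiating myoblasts. Meg3, Rian and Mirg are maternal noncoding RNAs of the Dlk1-Dio3 domain and carry or host many microRNAs and small nucleolar RNAs, while Dlk1, a membrane protein of the Notch ligand family, is the paternal gene at its edge. Igf2r encodes the receptor that takes IGF2 to lysosomes, and Grb10 an adaptor that restrains insulin and IGF1 receptor signalling. Peg3 and Plagl1 encode zinc finger proteins, and Ndn encodes necdin, a MAGE family protein. Counts of total RNA do not separate the parental alleles, so imprinting itself was not measured. Cry1 and Cry2 encode cryptochromes, repressors of the CLOCK and BMAL1 activators, which bind the E-box CACGTG.

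The sequences that follow show what H19 and Mirg carry, and a pair of promoters that differ in base composition and in E-boxes. The first 5 are mature microRNAs from RefSeq on GRCm38.p6, with the seed (bases 2 to 8) in capitals. The miR-675 pair lies within H19 on the minus strand of chromosome 7, and the other 3 lie within Mirg on the plus strand of chromosome 12.
miR-675-5p: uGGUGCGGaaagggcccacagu
miR-675-3p: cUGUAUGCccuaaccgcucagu
miR-134-5p: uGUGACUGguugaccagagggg
miR-453: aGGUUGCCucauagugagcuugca
miR-496a-5p: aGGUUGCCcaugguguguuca
The miR-453 and miR-496a-5p seeds are the same 7 letters. Across the Dlk1-Dio3 domain RefSeq lists 58 hairpins with 113 mature names, which hold 104 different seeds, and 26 of the mature names lie within Mirg, 6 within Rian and 3 within Meg3.

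Promoter windows of 250 bases upstream of the RefSeq start were found for 9 of the 10 genes. The Meg3 window is chr12:109540746-109540995 on the plus strand, with CG pairs in capitals. The Igf2r window is chr17:12769707-12769956 on the minus strand, with CACGTG in capitals.
Meg3: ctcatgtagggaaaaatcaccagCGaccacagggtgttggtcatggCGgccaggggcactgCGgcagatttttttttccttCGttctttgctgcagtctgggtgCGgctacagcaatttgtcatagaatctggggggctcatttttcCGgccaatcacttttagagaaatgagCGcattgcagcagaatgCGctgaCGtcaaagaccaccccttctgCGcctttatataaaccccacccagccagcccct
Igf2r: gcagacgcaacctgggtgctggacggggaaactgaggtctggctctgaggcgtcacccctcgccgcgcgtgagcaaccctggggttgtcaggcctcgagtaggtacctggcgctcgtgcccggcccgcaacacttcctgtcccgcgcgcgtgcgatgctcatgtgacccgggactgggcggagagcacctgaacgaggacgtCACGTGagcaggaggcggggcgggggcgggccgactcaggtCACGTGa
The printed Meg3 window held 10 CG pairs and the Igf2r window 27, against a median of 6 over 32851 RefSeq promoter windows of the same length. Meg3 and Grb10 each have a second RefSeq start. The window of the second Meg3 start (chr12:109545148-109545397) held 0 CG pairs, and the Grb10 windows held 40 and 8. CACGTG, which reads the same on both strands, occurred 2 times in the Igf2r window and 1 time in the Plagl1 window, and in none of those of the other 7 genes. It was present in 6.02% of all windows. CAGCTG, the E-box form that MYOD1 binds, was in 4271 of the 32851 windows and in none of these 9 genes. These matches are a description of letters in the windows and no measure of binding.

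Total counts ran from 4731020 to 6412279 per library, so 3 counts, the limit that a count of 0 allows, correspond to 0.440 to 0.635 CPM, counts scaled to a common library size with TMM factors. Intervals and limits cover counting error only. As a check of the labels, the Cry2 gene had 7.27, 8.26 and 16.6 CPM in Cry2 knockdown cells, against 19.2, 39.6 and 48.9 CPM in control cells. The Cry1 gene had 8.30, 6.65 and 8.14 CPM in Cry1 knockdown cells, against 20.5, 15.8 and 17.4 CPM in control cells. All 5 myoblast markers (Myod1, Myf5, Des, Cdh15, Itga7) had counts in all 9 libraries. The summed level of 8 myotube markers was between 279.8 and 1019 CPM at day 0 and between 12083 and 18983 CPM at days 3 and 5. Markers of endothelial and blood cells summed to at most 2.8 CPM, with 2 to 5 of the 6 at 0. Those of adipocytes summed to between 8.68 and 36.2 CPM, with 1 to 2 of the 5 at 0. Those of osteoblasts summed to between 27.3 and 61.7 CPM, with 2 to 4 of the 5 at 0, and Runx2 among them had between 26.4 and 61.4 CPM. Genes were compared in additive edgeR fits of genotype and day over 9 libraries, and called at a Benjamini-Hochberg adjusted p under 0.05 over 12752 genes. Since no genotype and day has a second library, the p-values set a difference against disagreement between the libraries, and any difference in culture common to all days of 1 genotype cannot be told apart from the knockdown. Fewer cells of a type and less RNA per cell also cannot be told apart.

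Meg3, Rian, Mirg and Dlk1 had 0 counts in each of the 9 libraries, at days 0, 3 and 5 and in all 3 genotypes. On mm10 they lie on the plus strand of chromosome 12: Dlk1 at 109452823 to 109463336, Meg3 at 109541001 to 109571726, Rian at 109603940 to 109661716 and Mirg at 109729764 to 109749460. The lack of counts was not limited to these 4 genes. Between Begain and Ppp2r5c, the 1378.9 kb that hold the domain have 106 annotated rows, and only 2 of them held any count, Rtl1 with 2 counts and Dio3 with 1. Together that is 3 counts of 52778710 in the 9 libraries. Rtl1 is a retrotransposon-derived gene needed in placenta and muscle, and Dio3 encodes the deiodinase that inactivates thyroid hormone. The protein-coding rows of the domain are Dlk1, Rtl1 and Dio3, at 0, 2 and 1 counts. All 17 protein-coding rows within 500 kb on either side of the domain held counts. Over the 9 libraries these ran from 5 for 1700001K19Rik and 10 for Begain to 47363 for Hsp90aa1.

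The 69 microRNA rows and 23 small nucleolar RNA rows of the domain were also at 0. In polyA libraries this says little, since 7.16% of all microRNA rows and 10.2% of all small nucleolar RNA rows in the tables held a count. Long intergenic noncoding rows held a count in 26.5% of cases and protein-coding rows in 72.5%. Other genes overlap 8.29% of the exon bases of Meg3, 5.03% of Mirg and 3.42% of Rian, and none of Dlk1, so most of each gene could be counted without a shared feature. No difference between genotypes or days in these 4 genes was detectable at this depth.

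**Figure D1:**
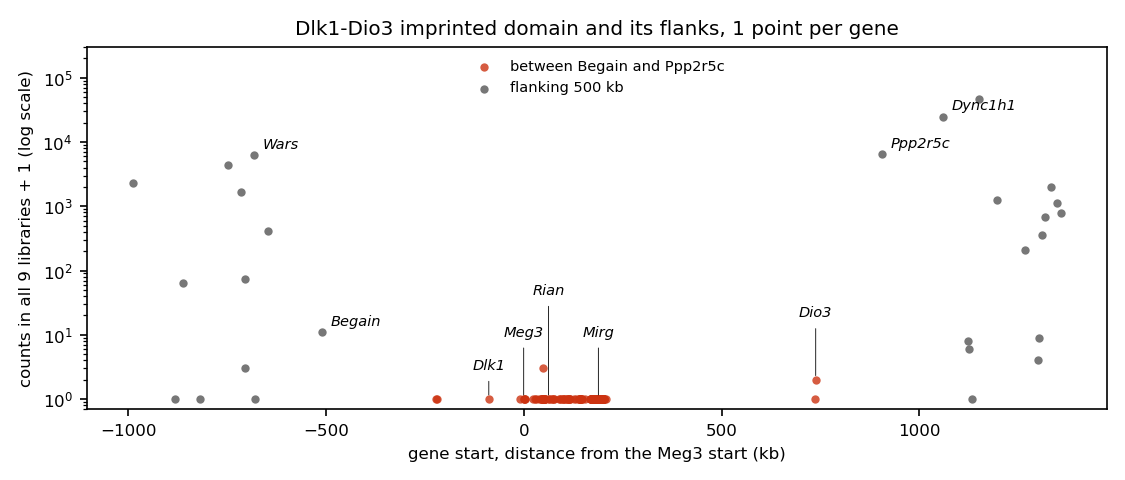
Counts summed over all 9 libraries plus 1 (log scale) for each annotated gene in and around the Dlk1-Dio3 domain, against the distance of its start from the Meg3 start in kb. The red points, between Begain and Ppp2r5c, lie at a count of 0 except for Rtl1 at 2 and Dio3 at 1. The protein-coding genes on both sides (grey, with other flanking rows) hold from 5 to 47363 counts.

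H19 (ENSMUSG00000000031, chromosome 7, 142575529 to 142578143, minus strand, mm10) was the most abundant of the 10 genes, and the most abundant long noncoding RNA in all 9 libraries. It had 1057, 8897 and 6507 CPM in Cry2 knockdown cells at days 0, 3 and 5. The values were 2141, 8948 and 8410 CPM in Cry1 knockdown cells and 1352, 7712 and 6831 CPM in the control. Every day 3 and day 5 library lay above every day 0 library, and among the day 0 libraries the Cry1 knockdown was highest. At day 3 H19 took 0.888% of the counts in Cry2 knockdown cells, 0.890% in the Cry1 knockdown and 0.758% in the control. In both knockdowns it was then the gene with the most counts of all, and it ranked 3 in the control, while at day 0 it ranked 63 in the Cry2 knockdown, 22 in the Cry1 knockdown and 39 in the control.

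H19 rose at day 3 against day 0 by 2.54 ± 0.18 on the log2 scale (± SE, 3 libraries per day, adjusted p = 7.5e-06, edgeR) and at day 5 against day 0 by 2.29 ± 0.18 (adjusted p = 6.9e-06). Within genotypes, the level at day 3 was 8.42 times that at day 0 in the Cry2 knockdown, 4.18 times in the Cry1 knockdown and 5.71 times in the control. Day 5 against day 3 did not pass (-0.25 ± 0.17, adjusted p = 0.300). H19 did not pass between genotypes: the value was -0.06 ± 0.17 for Cry2 knockdown against control (adjusted p = 0.930), 0.41 ± 0.17 for the Cry1 knockdown against the control (adjusted p = 0.240) and -0.46 ± 0.17 for the Cry2 against the Cry1 knockdown (adjusted p = 0.130). The last pair of values were past the threshold without a filter on low counts (adjusted p = 0.0419 for the Cry1 knockdown against the control and 0.00789 between the knockdowns), and the last also with DESeq2 (adjusted p = 0.0427). At day 0, where H19 was 0.66 higher on the log2 scale in the Cry1 knockdown library than in the control library (counting interval 0.63 to 0.70), the 8 myotube markers summed to 279.8 CPM in Cry2 knockdown cells, 1019 CPM in Cry1 knockdown cells and 369.3 CPM in the control. The part of these markers in the H19 difference was not tested.

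**Figure D2:**
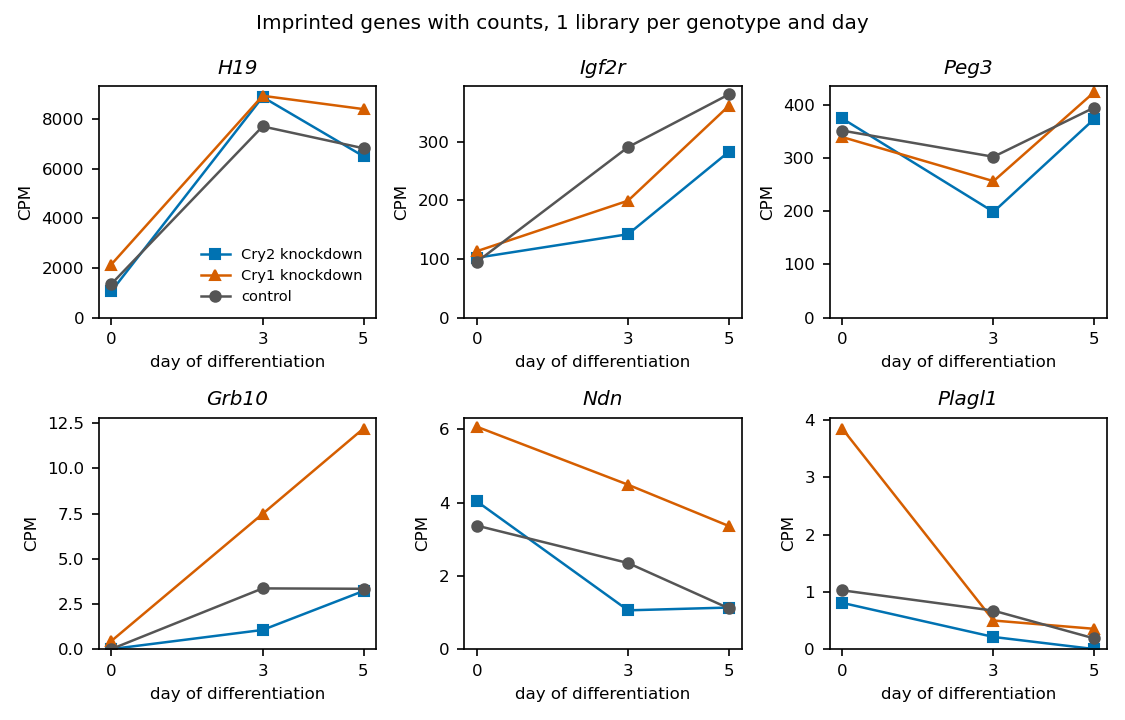
Levels in CPM (y axis, linear from 0, scale differs by panel) of the 6 genes with counts, by day of differentiation (x axis) in the Cry2 knockdown (squares), the Cry1 knockdown (triangles) and the control (circles), with 1 library per point. H19 and Igf2r are higher at days 3 and 5 than at day 0 in each genotype, Ndn at each day and Grb10 at days 3 and 5 are highest in the Cry1 knockdown, and Plagl1 stands out in the Cry1 knockdown at day 0.

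Igf2, the paternally expressed neighbour of H19, had 9.05, 505 and 501 CPM in Cry2 knockdown cells at days 0, 3 and 5, 20.2, 552 and 667 CPM in Cry1 knockdown cells and 8.65, 457 and 496 CPM in the control. It was thus also highest in the Cry1 knockdown at each day. The Cry1 knockdown against the control did not pass for Igf2 in the edgeR fit. It was past the threshold with DESeq2 (0.57, adjusted p = 0.0297) and in edgeR without a filter on low counts (0.54, adjusted p = 0.0103). Igf2 rose at day 3 against day 0 by 5.37 ± 0.19 (adjusted p = 4.7e-07, edgeR), a larger log2 fold change than that of H19. Counted per kb of exon, H19 exceeded Igf2 272 times in the Cry2 knockdown, 247 times in the Cry1 knockdown and 363 times in the control at day 0. At day 5 the ratio per kb was 30.2, 29.3 and 32.1 in the same order of genotypes, so the level ratio narrowed in each genotype. Other annotated features, Mir675 among them, overlap 9.15% of the H19 exon bases.

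The pair of microRNAs hosted by H19 are reported in mouse myoblasts to act on Smad1 and Smad5, transducers of BMP signals, and on Cdc6, a DNA replication licensing factor. Cdc6 fell at day 3 against day 0 by -2.95 ± 0.17 (adjusted p = 2.4e-06, edgeR), as did all 5 proliferation markers. Smad5 had 121.8, 101.4 and 113.7 CPM in Cry2 knockdown cells, 119.3, 100.1 and 125.9 CPM in Cry1 knockdown cells and 121.6, 105.1 and 107.9 CPM in the control. Its fall at day 3, -0.24 ± 0.08 (adjusted p = 0.0303), did not hold without the Cry2 knockdown of day 0 or 3, the Cry1 knockdown of day 3 or the control of day 0 (adjusted p up to 0.142), nor with DESeq2 (adjusted p = 0.132), without a low-count filter (0.0515) or in the fit of the 6 libraries compared (0.0685). Smad1 did not pass at day 3. It was higher at day 5 against day 0 by 0.35 ± 0.11 (adjusted p = 0.0197, edgeR). Between the knockdowns Smad1 was lower in the Cry2 than in the Cry1 knockdown, at -0.51 ± 0.11 (adjusted p = 0.0255). Neither call held with DESeq2 (adjusted p = 0.1 and 0.0759) or in some fits with 1 library left out (up to 0.106 and 0.115). The microRNAs themselves were not measured in these polyA libraries.

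Igf2r (ENSMUSG00000023830, chromosome 17, 12682406 to 12769664, minus strand) stood at 101.9, 142 and 283 CPM in Cry2 knockdown cells at days 0, 3 and 5. The values were 113, 199 and 361 CPM in Cry1 knockdown cells and 94.8, 290.5 and 380 CPM in the control. The 3 genotypes were close at day 0, and at day 3 both knockdown libraries lay below the control library. Igf2r rose at day 3 against day 0 by 0.98 ± 0.18 (adjusted p = 0.00156, edgeR) and at day 5 against day 0 by 1.70 ± 0.18 (adjusted p = 4.2e-05). It also rose at day 5 against day 3, by 0.72 ± 0.17 (adjusted p = 0.0143). That last call did not hold without the Cry2 knockdown library of day 3 (0.54, adjusted p = 0.0670) or the Cry1 knockdown library of day 3 (0.65, adjusted p = 0.0701) or day 5 (0.70, adjusted p = 0.0585).

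At day 3 the log2 ratio of Igf2r to the control library was -1.03 in the Cry2 knockdown (counting interval -1.16 to -0.90) and -0.54 in the Cry1 knockdown (-0.65 to -0.44). The Igf2r level at day 3 was 1.39 times that at day 0 in the Cry2 knockdown, 1.76 times in the Cry1 knockdown and 3.07 times in the control. At day 5 the log2 ratio to the control library was -0.43 in the Cry2 knockdown (-0.52 to -0.33) and -0.08 in the Cry1 knockdown (-0.16 to 0.01). These ratios compare single libraries and have no replicate check. Over the 3 days the Cry2 knockdown against the control did not pass (-0.47 ± 0.17, adjusted p = 0.329), nor did the Cry1 knockdown against the control (-0.15 ± 0.17, adjusted p = 0.690). The differentiation response, the step out of day 0 in the Cry2 knockdown against that in the control, was -0.84 ± 0.27 and did not pass (adjusted p = 0.793, 2 residual degrees of freedom). Without a filter on low counts, the Cry2 knockdown against the control was past the threshold (-0.49, adjusted p = 0.0479). Peg3 was lowest in the same library, the Cry2 knockdown at day 3, which also had the lowest total count and the highest share of mitochondrial counts (2.21%, against 0.695% to 2.12% in the other 8 libraries). The part of these in the Igf2r and Peg3 values was not tested.

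Airn is the paternal antisense RNA whose transcription silences Igf2r on that allele in mouse. It starts inside Igf2r and runs over its first exon on the opposite strand (chromosome 17, 12741311 to 12860136, plus strand). Airn had 1.13, 5.72 and 4.73 CPM in Cry2 knockdown cells, 2.07, 6.82 and 5.66 CPM in Cry1 knockdown cells and 1.61, 4.53 and 6.30 CPM in the control. Like Igf2r it was higher at days 3 and 5 than at day 0 in each genotype, and it rose at day 3 by 1.81 ± 0.28 (adjusted p = 0.000758, edgeR). Per kb of exon the ratio of Igf2r to Airn at day 3 was 9.60 in the Cry2 knockdown, 11.3 in the Cry1 knockdown and 24.8 in the control. At day 5 the ratios were 23.1 in the Cry2 knockdown, 24.6 in the Cry1 knockdown and 23.3 in the control. The day 3 ratios rest on 27, 41 and 27 Airn counts in the same order. At day 0 the ratios were 34.8, 21.1 and 22.7 in that order, on 7, 14 and 11 Airn counts. The annotated exons of both genes do not overlap, but TruSeq RNA v2 libraries carry no strand information, so unspliced Airn RNA over Igf2r exons cannot be told apart from Igf2r.

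**Figure D3:**
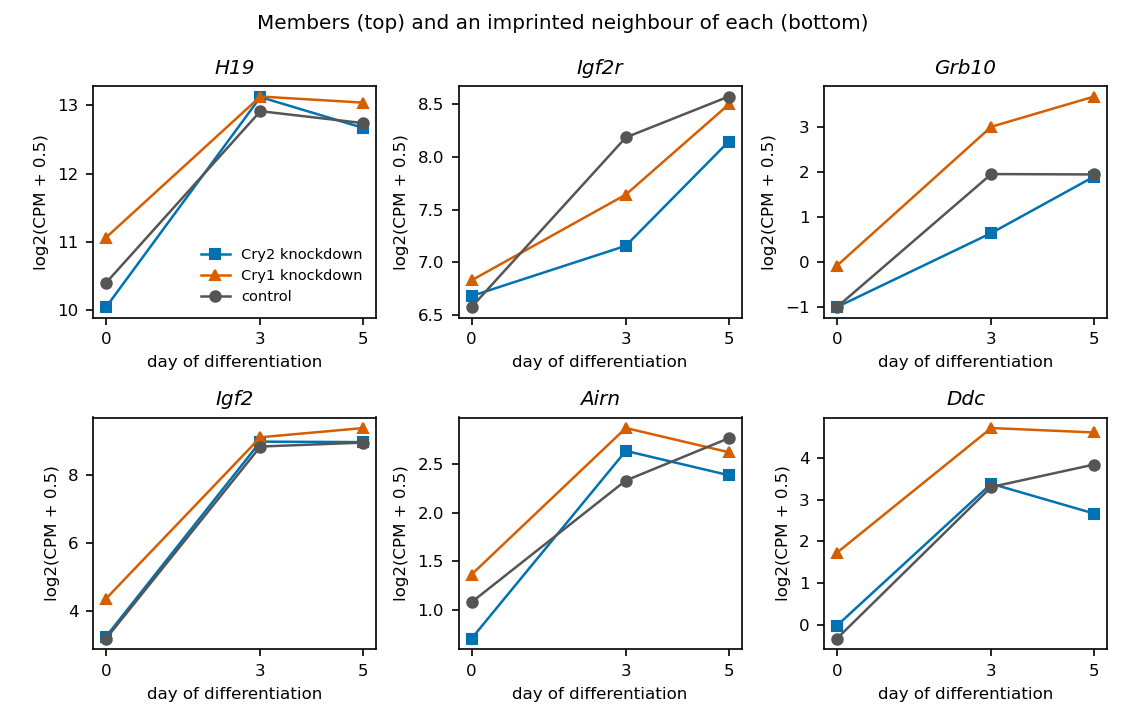
Levels as log2(CPM + 0.5) (y axis, scale differs by panel) by day of differentiation (x axis) of H19, Igf2r and Grb10 (top) and of an imprinted neighbour of each, Igf2, Airn and Ddc (bottom), with 1 library per point. Igf2 follows H19 upward at day 3, and both knockdown libraries lie below the control for Igf2r at day 3. The Airn points of day 3 rest on 27 counts in the Cry2 knockdown, 41 in the Cry1 knockdown and 27 in the control. Ddc, like Grb10, is highest in the Cry1 knockdown at days 3 and 5.

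Grb10 (ENSMUSG00000020176, chromosome 11, 11930508 to 12038683, minus strand) was all but absent at day 0 and appeared during differentiation. It had 0, 5 and 17 counts in Cry2 knockdown cells at days 0, 3 and 5, equal to 0, 1.06 and 3.22 CPM. It had 3, 45 and 69 counts in Cry1 knockdown cells, equal to 0.445, 7.48 and 12.2 CPM. It had 0, 20 and 18 counts in the control, equal to 0, 3.36 and 3.34 CPM. The Cry1 knockdown was highest at days 3 and 5 and the Cry2 knockdown lowest at day 3, while at day 0 all 3 libraries were at or under the limit of 3 counts.

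Between the knockdowns Grb10 was lower in the Cry2 than in the Cry1 knockdown, the log2 difference being -2.27 ± 0.42 (n = 3 libraries per genotype, adjusted p = 0.0165, edgeR). It was 1 of 5 tested genes of the 10 called in this comparison, against 7.9% of all 12752 genes in either direction and 3.65% lower. It did not hold without the Cry2 knockdown library of day 3 (-1.89, adjusted p = 0.0983) or the Cry1 knockdown library of day 3 (-2.37, adjusted p = 0.0721) or day 5 (-2.32, adjusted p = 0.0937). Against the control, the Cry1 knockdown gave 1.58 ± 0.39 (adjusted p = 0.0721), past the threshold without a filter on low counts (adjusted p = 0.00670), and the Cry2 knockdown -0.68 ± 0.47 (adjusted p = 0.610). The rise at day 3 against day 0 was 4.59 ± 0.60 (adjusted p = 0.000271) and at day 5 against day 0 was 5.24 ± 0.57 (adjusted p = 5.7e-05), on 3 counts in all at day 0. With day 0 set at the limit of 3 counts per library, day 3 was at least 2.18 times higher in the Cry2 knockdown and at least 7.63 times higher in the control. With the counting error of the day 3 counts included, the exact 95% interval of the ratio began at 1.201 in the Cry2 knockdown and at 5.65 in the control. At day 3 the summed myotube markers were also highest in Cry1 knockdown cells (17160 CPM). Cry2 knockdown cells (13964 CPM) then lay above control cells (12083 CPM), unlike for Grb10. At day 5 Cry2 knockdown cells had the highest sum (18983 CPM), followed by Cry1 knockdown cells (18424 CPM) and control cells (17890 CPM). Over the 3 days all 8 markers were lower in the Cry2 than in the Cry1 knockdown (median log2 difference -0.75), and 2 were called. The part of these markers in the Grb10 difference was not tested.

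The neighbours of Grb10 on chromosome 11, Ddc and Cobl, were also higher at day 3 than at day 0. In the Cry2 knockdown the level at day 5 over that at day 3 was 3.04 for Grb10 (counting interval 1.08 to 10.5). It was 0.589 for Ddc (0.362 to 0.947) and 1.16 for Cobl (1.03 to 1.31). In the Cry1 knockdown the ratios were 1.63 for Grb10, 0.927 for Ddc and 1.00 for Cobl. In the control the ratio was 0.994 for Grb10 (0.496 to 1.98) and 1.48 for Ddc (1.03 to 2.13), with intervals that overlap. Cobl was at 1.43 there. All of these ratios compare single libraries and have no replicate check. Ddc, which makes dopamine and serotonin from their precursors and is imprinted in heart, had 0.485, 9.95 and 5.86 CPM in Cry2 knockdown cells, 2.82, 25.9 and 24.1 CPM in Cry1 knockdown cells and 0.293, 9.40 and 13.9 CPM in the control. Ddc was lower in the Cry2 than in the Cry1 knockdown by -1.78 ± 0.32 (adjusted p = 0.0157, edgeR). It did not hold without the Cry2 knockdown of day 5 or the Cry1 knockdown of day 3 or 5 (adjusted p up to 0.0869). Cobl, an actin nucleator on the other side of Grb10, had 27.0, 101 and 117 CPM in Cry2 knockdown cells, 27.1, 168 and 168 CPM in Cry1 knockdown cells and 23.5, 99.9 and 143 CPM in the control. It rose at day 3 against day 0 by 2.22 ± 0.15 (adjusted p = 5.3e-06) and did not pass between the knockdowns (-0.46 ± 0.14, adjusted p = 0.0750).

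Peg3 (ENSMUSG00000002265, chromosome 7, 6703892 to 6730431, minus strand), a zinc finger protein tied to p53 and TNF signalling, was lowest at day 3 in each genotype. It had 374, 199 and 373 CPM in Cry2 knockdown cells at days 0, 3 and 5, 339, 256 and 424 CPM in Cry1 knockdown cells and 351, 302 and 395 CPM in the control. Peg3 fell at day 3 against day 0 by -0.51 ± 0.13 (adjusted p = 0.00884, edgeR) and rose at day 5 against day 3 by 0.66 ± 0.13 (adjusted p = 0.00594). Day 5 against day 0 did not pass (0.16 ± 0.13, adjusted p = 0.308). The dip was deepest in the Cry2 knockdown, where day 3 was 0.531 times day 0, against 0.756 times in the Cry1 knockdown and 0.860 times in the control. The differentiation response of Peg3 in the Cry2 knockdown against the control did not pass (-0.43 ± 0.23, adjusted p = 0.827). Of its neighbours, the zinc finger gene Zim1 rose at day 5 against day 0 by 1.16 ± 0.12 (adjusted p = 4.5e-05). Usp29, read from the shared promoter region on the opposite strand, lay between 1.48 and 5.33 CPM.

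Ndn (ENSMUSG00000033585, chromosome 7, 62346569 to 62350262, plus strand) was a low-count gene that fell during differentiation. It had 25, 5 and 6 counts in Cry2 knockdown cells at days 0, 3 and 5, 41, 27 and 19 counts in Cry1 knockdown cells and 23, 14 and 6 counts in the control. The Cry1 knockdown library was highest at each day. At day 5 against day 0 Ndn fell by -1.33 ± 0.35 (adjusted p = 0.00957, edgeR), and at day 3 the value was -0.81 ± 0.33 (adjusted p = 0.0642). The Cry1 knockdown against the control gave 1.06 ± 0.33 (adjusted p = 0.131) and the Cry2 against the Cry1 knockdown -1.20 ± 0.34 (adjusted p = 0.0662), past the threshold only without a filter on low counts (adjusted p = 0.0238). Of the genes in the same imprinted region, Magel2 was at 0 in all libraries. Ube3a, the ubiquitin ligase gene that is maternal in neurons, lay between 59.9 and 104 CPM. It was higher at day 5 than at day 3 by 0.42 ± 0.12 (adjusted p = 0.0323, edgeR), a call that did not hold without the day 3 or day 5 library of either knockdown (adjusted p up to 0.152).

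Plagl1 (ENSMUSG00000019817, chromosome 10, 13060504 to 13131694, plus strand), a cell-cycle inhibiting zinc finger factor, had too few counts for the test. It had 5, 1 and 0 counts in Cry2 knockdown cells at days 0, 3 and 5, 26, 3 and 2 counts in Cry1 knockdown cells and 7, 4 and 1 counts in the control. The day 0 library of the Cry1 knockdown stood apart, with a log2 ratio of 1.77 to the control library of that day (counting interval 0.67 to 3.36, no replicate check). Within the Cry1 knockdown the level at day 3 was 0.129 times that at day 0 (interval 0.0251 to 0.423). In the Cry2 knockdown and the control the intervals of the day 3 to day 0 ratio included 1.

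Of the 10 genes, 5 passed the filter on low counts: H19, Igf2r, Peg3, Grb10 and Ndn. At day 3 against day 0, 4 of the 5 were called (H19, Igf2r and Grb10 higher, Peg3 lower), against 51.8% of all 12752 genes, 25.6% higher and 26.2% lower. At day 5 against day 0, 4 of 5 were called (H19, Igf2r and Grb10 higher, Ndn lower), against 56.6% of all, 28.5% higher and 28.1% lower. At day 5 against day 3, 2 of 5 were called (Igf2r and Peg3 higher), against 28.5% of all and 15.1% higher. With 5 genes tested, nothing particular to imprinted genes can be read from these counts.

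For the Cry2 knockdown against the control edgeR called 0 of 5, against 0.0235% of all genes, with 1 of the 5 (Igf2r) at an unadjusted p under 0.05 (12.4% of all genes), and DESeq2 also called 0. For the Cry1 knockdown against the control edgeR called 0 of 5, against 2.59%, with 3 of the 5 (H19, Grb10 and Ndn) at an unadjusted p under 0.05 (19.1% of all genes), and DESeq2 called 0. The differentiation responses gave 0 of 5 in the Cry2 knockdown, against 0.0392% of all genes, and 0 of 5 in the Cry1 knockdown, against 0.0%. Grb10 is among these 5, but it had 0 counts at day 0 in the Cry2 knockdown and in the control. Its Cry2 response could therefore not be estimated (SE 6701), and its absence from the calls there carries no information. Its Cry1 response rests on 3 counts at day 0 in the Cry1 knockdown and 0 in the control (SE 2.15). By unadjusted p under 0.05, 1 of the 5 (Igf2r) passed in the Cry2 response, against 6.03% of all genes, and 0 in the Cry1 response, against 4.99%, and DESeq2 called 0 in both. The knockdowns share the control libraries, so both genotype comparisons and both responses hold common values.

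**Figure D4:**
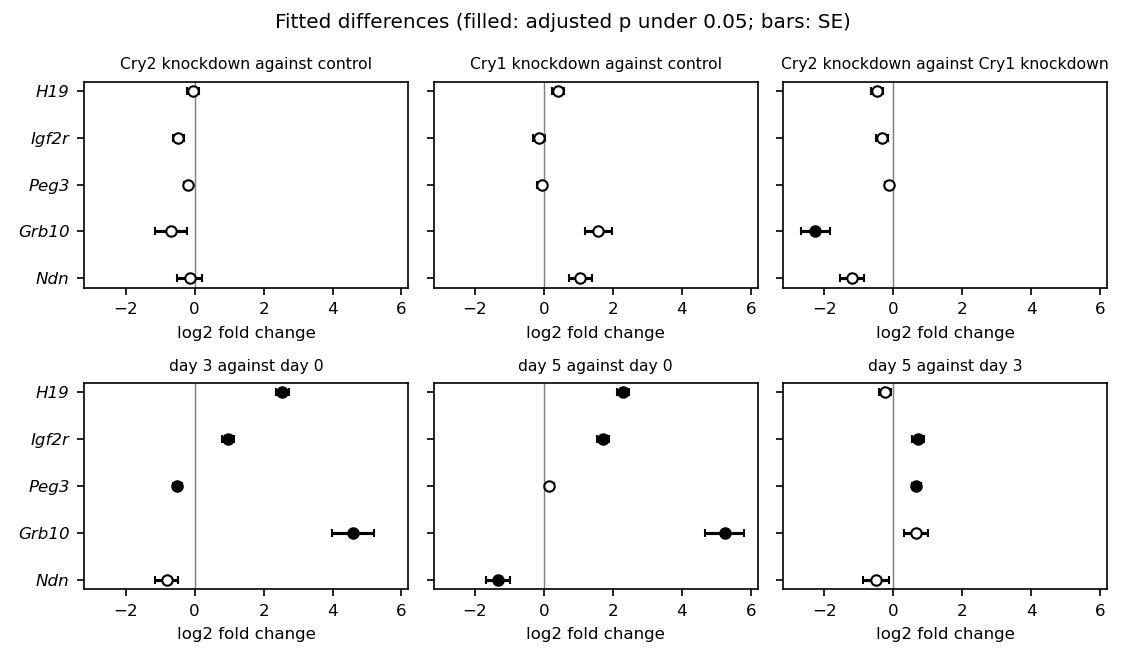
Log2 fold changes (x axis) with SE bars of the 5 genes tested, for 3 comparisons of genotypes (top, n = 3 libraries per genotype) and 3 of days (bottom, n = 3 libraries per day), filled where the adjusted p was under 0.05. In the genotype panels only Grb10 is filled, between the knockdowns at -2.27, while 4, 4 and 2 of the 5 genes are filled in the day panels.

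Beyond these 10, a list of 54 other genes known to be imprinted in some mouse tissue had 28 members with enough counts, and several of these are imprinted only in placenta or brain. Cdh15, one of them, also stands among the myoblast markers. At day 5 against day 0, 17 of the 28 were called, 10 higher and 7 lower (all genes: 56.6%, 28.5% higher and 28.1% lower), and the median over the 28 was 0.15 on the log2 scale (0.01 over all genes). Igf2 rose by 5.49 ± 0.19, the matrix proteoglycan gene Dcn by 5.03 ± 0.15 and Ddc by 3.65 ± 0.38 (adjusted p at most 4.7e-05, edgeR). Mest, an alpha/beta hydrolase gene, fell by -1.98 ± 0.24 (adjusted p = 0.000115), and Peg10, a retrotransposon-derived gene, fell by -1.96 ± 0.15 (adjusted p = 5.3e-06). Copg2 exons overlap 23.1% of the Mest exon bases. At day 3 against day 0, 15 of the 28 were called, 11 higher and 4 lower (all genes: 51.8%, 25.6% higher and 26.2% lower).

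Cdkn1c, the cyclin-dependent kinase inhibitor p57 that serves cell-cycle exit in muscle, was raised at day 3 alone. It had 0.808, 5.93 and 0.378 CPM in Cry2 knockdown cells at days 0, 3 and 5, 1.33, 22.1 and 1.77 CPM in Cry1 knockdown cells and 0.88, 17.5 and 1.85 CPM in the control. It rose at day 3 against day 0 by 3.85 ± 0.30 (adjusted p = 1.3e-05, edgeR) and fell at day 5 against day 3 by -3.48 ± 0.30 (adjusted p = 0.000562). It was lower in the Cry2 than in the Cry1 knockdown by -1.70 ± 0.33 (adjusted p = 0.0184). It did not hold without the Cry2 knockdown of day 3 or 5 or the Cry1 knockdown of day 3 (adjusted p up to 0.211). Gm44732 overlaps 30.7% of the Cdkn1c exon bases.

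Between genotypes, 0 of the 28 were called by edgeR for the Cry2 knockdown against the control, 2 for the Cry1 knockdown against the control and 4 for the Cry2 against the Cry1 knockdown. The shares over all genes were 0.0235%, 2.59% and 7.9% in the same order. Without a filter on low counts these were 2, 8 and 8, and with DESeq2 the first was 0 and the second 4. For the Cry2 knockdown against the control, 4 of the 28 had an unadjusted p under 0.05, against 12.4% of all genes. The 4 became 2 without the Cry2 knockdown of day 5 or the Cry1 knockdown of day 3. Peg10 had 47.3, 15.0 and 13.4 CPM in Cry2 knockdown cells, 131, 56.0 and 35.0 CPM in Cry1 knockdown cells and 77.7, 19.5 and 18.0 CPM in the control. It was higher in the Cry1 knockdown than in the control by 1.05 ± 0.14 (adjusted p = 0.0130), a call lost without the day 5 control (1.05, adjusted p = 0.0544). Between the knockdowns it was -1.59 ± 0.15 (adjusted p = 0.00143). Dcn ran the other way, with 28.3, 495 and 705 CPM in Cry2 knockdown cells, 9.34, 164 and 321 CPM in Cry1 knockdown cells and 20.1, 433 and 815 CPM in the control. It was lower in the Cry1 knockdown than in the control by -1.31 ± 0.13 (adjusted p = 0.00479) and higher in the Cry2 than in the Cry1 knockdown by 1.43 ± 0.13 (adjusted p = 0.00143).

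**Figure D5:**
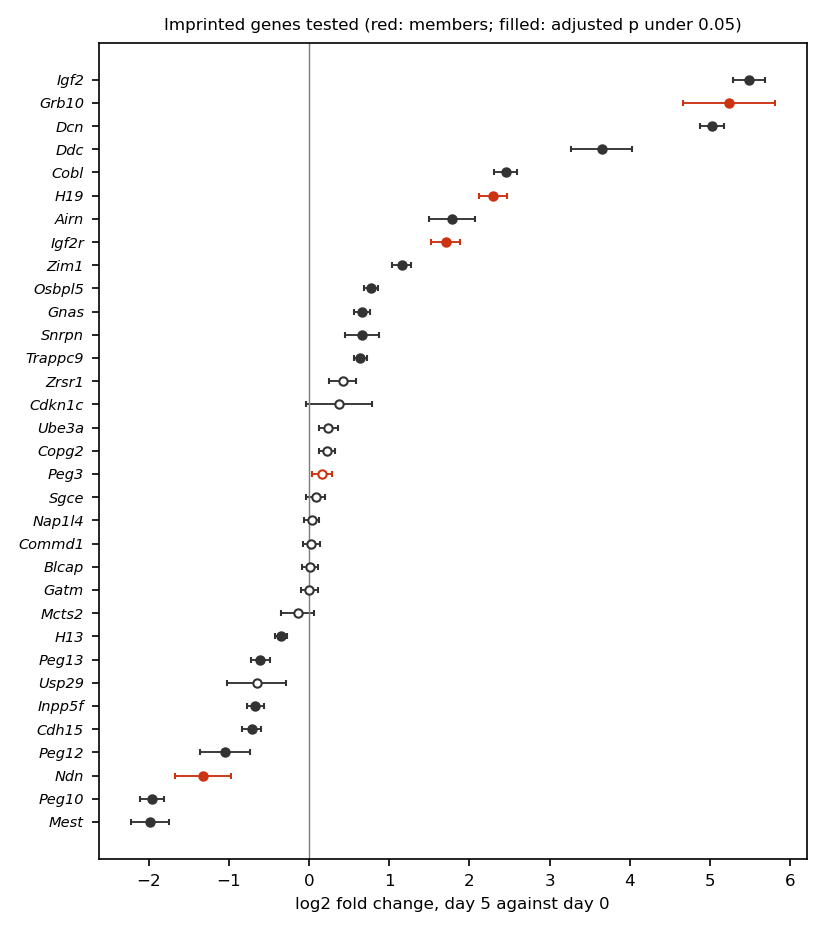
Log2 fold change at day 5 against day 0 (x axis) with SE bars for the 5 tested genes of the 10 (red) and the 28 tested genes of the list of other imprinted genes (black), filled where the adjusted p was under 0.05, n = 3 libraries per day. Igf2, Grb10 and Dcn lie at the top, and Mest and Peg10 at the bottom.

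Of 12 genes tied to DNA methylation or to the upkeep of imprints, all had enough counts. At day 5 against day 0, 8 were called, 3 higher and 5 lower, against 56.6% of all genes. Uhrf1, which brings the maintenance methylase to replicated DNA, had 157, 22.7 and 6.62 CPM in Cry2 knockdown cells, 218, 36.3 and 12.4 CPM in Cry1 knockdown cells and 199, 29.2 and 5.75 CPM in the control, and fell by -4.55 ± 0.16 (adjusted p = 1.3e-07, edgeR). The maintenance methylase gene Dnmt1 fell by -1.79 ± 0.09 (adjusted p = 7.4e-07), while the dioxygenase gene Tet3 rose by 0.87 ± 0.14 (adjusted p = 0.000769). All 5 proliferation markers fell at the same time, with a median of -3.58. Zfp57, a zinc finger protein that protects imprints, was lower in the Cry2 than in the Cry1 knockdown by -1.35 ± 0.22 (adjusted p = 0.00979), which did not hold without the library of day 3 of either knockdown (adjusted p up to 0.0601).

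Among 19 other long noncoding RNAs with a row, 15 had enough counts and 8 were called at day 5 against day 0, 5 higher and 3 lower (5 without the Cry2 knockdown of day 5), against 56.6% of all genes. Kcnq1ot1, one of the 19, is also on the list of other imprinted genes. Mir22hg, the host of a muscle microRNA, rose by 1.67 ± 0.12 (adjusted p = 4.7e-06, edgeR) and Neat1, the scaffold of nuclear paraspeckles, by 1.27 ± 0.13 (adjusted p = 3.1e-05). Both log2 fold changes were below the 2.29 of H19. For the Cry2 against the Cry1 knockdown 5 of the 15 were called and all were lower (7.9% of all genes called, 3.65% lower), among them the small nucleolar RNA host Gas5 (-0.87 ± 0.15, adjusted p = 0.0115). DESeq2 called 2 of the 15 there, and leaving out the Cry2 knockdown of day 3 or 5 gave 1 or 0, or any 1 of the Cry1 knockdown libraries 1 to 2. Gas5 did not pass without the Cry2 knockdown of day 3 or 5 or the Cry1 knockdown of day 3 (adjusted p up to 0.0631).

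A list of 13 genes tied to insulin and IGF signalling also held genes for proteins that bind IGFs or Igf2 mRNA. Of these 13, 12 had enough counts and 8 were called at day 5 against day 0. Of the called genes 4 were higher and 4 lower, against 56.6% of all genes called. Igf1 had 3.55, 41.5 and 59.2 CPM in Cry2 knockdown cells at days 0, 3 and 5, 2.96, 11.1 and 18.2 CPM in Cry1 knockdown cells and 6.01, 40.0 and 79.7 CPM in the control. It rose at day 5 against day 0 by 3.56 ± 0.24 (adjusted p = 2.8e-06, edgeR) and was lower in the Cry1 knockdown than in the control by -1.85 ± 0.22 (adjusted p = 0.00806). The genotype difference did not pass without the Cry1 knockdown library of day 3 (-1.74, adjusted p = 0.0706) or the day 5 control (-1.69, adjusted p = 0.0544). Igfbp2, an IGF binding protein gene, fell at day 5 against day 0 by -2.71 ± 0.30 (adjusted p = 6.2e-05).

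The genes whose log2 CPM ran closest to that of each of the 3 members above 5 CPM were found among 10112 named genes over the 9 libraries, which share the time course. For H19 they were Fst (follistatin, a myostatin antagonist) at a Pearson r of 0.9962, Mymx (a myoblast fusion peptide) at 0.9953 and Tnnt2 (cardiac troponin T) at 0.9937. For Igf2r they were Fyn at 0.9899, Cpeb2 at 0.983 and Acp2, a lysosomal acid phosphatase gene, at 0.9825. For Peg3 they were Cmip at 0.979, Med12 at 0.9784 and Hectd4 at 0.9753.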

How the data were processed

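Per the submitters' processing notes, the reads were handled with CASAVA 1.8, HISAT2 2.0.2 and featureCounts 1.4.6 of Subread on mm10; options, annotation release and strand setting are not given in the sources used here. The deposited values are raw counts per gene, made by the authors, with no normalization. Per the labels' protocols, libraries were made with TruSeq RNA v2, which does not keep strand. IDs were matched to a GENCODE annotation of mm10 (47309 of 47728 matched), which gave symbols, coordinates and exon overlaps. Counts were filtered with filterByExpr by genotype, scaled by TMM and tested by edgeR 4.0.16 quasi-likelihood F tests (R 4.3.3, limma 3.58.1) in an additive model of genotype and day (9 libraries, 4 residual degrees of freedom). The differentiation responses used genotype by stage with a shared day 5 term (2 residual degrees of freedom). SE is the absolute log2 fold change over the square root of F. P-values were adjusted by Benjamini-Hochberg over 12752 genes. Within-day log2 ratios of CPM used a prior count of 1, with exact 95% binomial counting intervals; 32 were computed, leaving out pairs with both counts at or under 3. Likeness used log2(CPM + 0.5).

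Alternatives were RLE size factors, size factors without the 10 genes and mitochondrially encoded genes, no low-count filter, 1 CPM in 3 libraries, DESeq2 1.42.0, only the 6 libraries compared, each library left out and a prior count of 5. Filtering on the design matrix was added after the data were seen. The fit was tested on simulated data. The genes and lists were chosen with earlier results of these data known. All 10 genes are named; of the other lists, the 2 or 3 largest called changes with at least 1 CPM were eligible, beside neighbours. The list of other long noncoding RNAs lacks Norad, which matched no row. Python 3.11.15 with numpy 2.4.6, pandas 2.3.3, scipy 1.17.1 and matplotlib 3.10.9 did the rest.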

Additional observations from a re-analysis of the deposited data

Results flagged for a closer look

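The Cry2 and Cry1 knockdowns differed from each other, by the test of that difference itself (edgeR, adjusted p under 0.05), in 5 imprinted genes (1 of the 5 tested of the 10 genes and 4 of the 28 others), against 7.9% of all genes. Grb10 was lower in the Cry2 knockdown by -2.27 on the log2 scale, Ddc by -1.78, Cdkn1c by -1.70 and Peg10 by -1.59. Dcn was higher in the Cry2 knockdown by 1.43. With 1 library left out, the calls of Grb10 (adjusted p up to 0.0983), Ddc (up to 0.0869) and Cdkn1c (up to 0.211) were lost, and those of Peg10 and Dcn were not. Grb10 and Ddc lie near each other on chromosome 11. With 1 library per genotype and day, no group was large enough to look for single libraries far from their group.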

How the results depend on the processing

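With 1 library per genotype and day, a genotype effect and a culture effect cannot be told apart, and Grb10, Ndn and Plagl1 rest on few counts. No paired analysis was possible because each genotype and day has 1 library; day is a term of the fit. Of the 10 genes, the count called without a low-count filter was 1 for the Cry2 knockdown against the control (Igf2r), 2 for the Cry1 knockdown against the control (H19 and Grb10) and 3 between the knockdowns (H19, Grb10 and Ndn), and 5 at day 3 and at day 5 against day 0, where Plagl1 then entered the test. DESeq2 called 2 between the knockdowns (H19 and Grb10). The causes were not tested. Leaving out 1 library gave 0 to 1 between the knockdowns, 4 to 5 for day 3 against day 0, 4 for day 5 against day 0, 1 to 2 for day 5 against day 3 and 0 for each knockdown against the control and for each response. RLE size factors, size factors without these genes, a filter of 1 CPM in 3 libraries, a filter on the design matrix (chosen after seeing the data) and fits of the 6 libraries compared left these counts as they were. Of 258 log2 fold changes of the 10 genes under other settings, 6 gained the threshold, none lost it and none changed sign. Of 326 with 1 library left out, 6 lost the threshold, 1 gained it and 8 changed sign, all of values that had not passed. Their ranges were -0.25 to 0.14 for H19 and -0.71 to 0.15 for Ndn in the Cry2 knockdown against the control, from -0.14 to 0.0856 for Peg3 and -0.36 to 0.11 for Igf2r in the Cry1 knockdown against the control, from -0.27 to 0.0308 for Peg3 between the knockdowns and from -0.23 to 0.20 for its response in the Cry1 knockdown. In the Cry2 knockdown against the control the ranges were -0.0557 to 0.167 for Igf2, -0.948 to 0.0188 for Ddc and -0.180 to 0.0820 for Cobl, none of which had passed.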
